A study of Mus musculus with 4 samples.

Results

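The genes of the DNA damage response and of DNA repair are described here in CD4+CD8+ double-positive (DP) thymocytes in which the deubiquitinase gene Usp8 was targeted by Cre. The set was fixed by name, as 41 checkpoint, homologous recombination, Fanconi, mismatch, base excision and nucleotide excision repair genes with a few p53 targets, and its members were the non-control array probes whose design name equalled one of them. Probes were present for 40 of the 41 genes, on an array that named 28482 genes or features in all. Mdc1, a scaffold of damage foci, had no probe under that name. Of the 40, 39 had at least 1 probe well above background on both arrays of a genotype, and 65 of the 75 probes of the set passed that filter. Bard1, the partner of Brca1, was the exception: its probe was well above background on 1 array of each genotype and was not tested.

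Each genotype was represented by 2 arrays. USP8ff_CD4Cre mice carried loxP-flanked Usp8 alleles and Cre under Cd4 regulatory sequences, and USP8ff mice carried the flanked alleles without Cre. All were untreated, sex-matched littermates of 6 to 12 weeks, and each of the 4 samples pooled the sorted DP thymocytes of 2 mice. No group carried Cre alone, so an effect of Cre and that of the deletion cannot be told apart. Values are log2 signals relative to the 75th percentile of the array, and differences are USP8ff_CD4Cre minus USP8ff. Probes differ in efficiency, so levels were not compared between genes. The p-values and standard errors (SE) come from limma, which moves each gene's spread toward that of all genes. A gene's own spread rests on only 2 pools per genotype, which limits how precise each difference can be.

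Between 45.0% and 48.9% of the probes were well above background on each array, and array-to-array correlations across genes lay between 0.991 and 0.996. The Usp8 probe that passed the filter had signals of -1.03 and -1.23 in USP8ff_CD4Cre, against -0.23 and -0.40 in USP8ff. That left 56.9% of the USP8ff signal, a difference of -0.81 ± 0.13 with an adjusted p of 0.60 in limma. The targeted gene itself thus did not pass the test over all genes. Another Usp8 probe failed the filter and was not used. All 10 DP-stage markers examined (among them Cd4, Cd8a, Cd8b1, Rag1, Rag2, Dntt, Cd1d1, Ptcra and Cd3e) were measured. Of the 10, 7 had negative differences (median -0.06). Both USP8ff_CD4Cre arrays lay below both USP8ff arrays for 4 (40%, against 16.3% of all genes) and above for 2 (20%, against 24.3%). Rag2, which with Rag1 makes the programmed breaks of receptor rearrangement, had the largest difference of the 10. It was -0.33 ± 0.13 with an adjusted p of 0.67 in limma. Over all 13062 genes tested, limma called 0 at an adjusted p of 0.05 (smallest adjusted p 0.29), while 970 genes (7.43%) had an unadjusted p under 0.05.

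Cells protect their genome with several pathways that differ in when they act. Homologous recombination, the Fanconi pathway and the ATR-CHK1 checkpoint serve replicating DNA, and many of their genes are transcribed as cells enter S phase, largely under E2F factors. Excision repair, the ATM-CHK2 branch and the MRE11-RAD50-NBS1 break sensor are needed in resting cells too. In the thymus the DP population holds both cycling blasts, which have just passed beta-selection, and small resting cells that rearrange their T cell receptor alpha genes through programmed DNA breaks. On this basis the members were divided into 14 cell-cycle-linked genes, 24 constitutive genes and 3 transcriptional targets of p53. The members, the classes and the wider lists below were chosen with earlier results of these data known. Contrasts between them are therefore descriptions and not independent tests.

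Most cell-cycle-linked repair genes had higher signals in USP8ff_CD4Cre than in USP8ff, by differences that did not pass the test over all genes. Of the 13 measured, 12 (92.3%) had positive differences, with a median log2 difference of 0.26 and a range of -0.05 to 0.59. Of the 23 measured constitutive genes, 14 (60.9%) were positive, with a median of 0.05 and a range of -0.23 to 0.50. Positive differences made up 54.8% of all genes, whose median was 0.02. The class medians were thus 0.20 apart, and with 2 arrays against 2, where an exact permutation test cannot go below p = 0.33, no test of that gap was made.

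No member passed limma's test over all genes, the adjusted p-values of the 39 lying between 0.66 and 0.99. At an unadjusted p under 0.05 there were 6 members higher in USP8ff_CD4Cre, where 3.97% of all genes met the same limit, and 1 lower, against 3.46% of all genes. The 6 were Brca1, Chek1, Ung, Exo1 and Rad54l of the cell-cycle-linked class and Nbn of the constitutive class, and the lower one was the p53 target Rrm2b. All 7 had an adjusted p of 0.66 in limma. These counts rested on single arrays, as did the share of all genes at the limit. Without USP8ff_CD4Cre replicate 2, 0 members met it (3.03% of all genes), without USP8ff replicate 2 there were 2 (6.58%) and without USP8ff replicate 1 there were 11 (9.41%). With no filter on dim probes 2 members met it (2.91% of all genes).

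**Figure D1:**
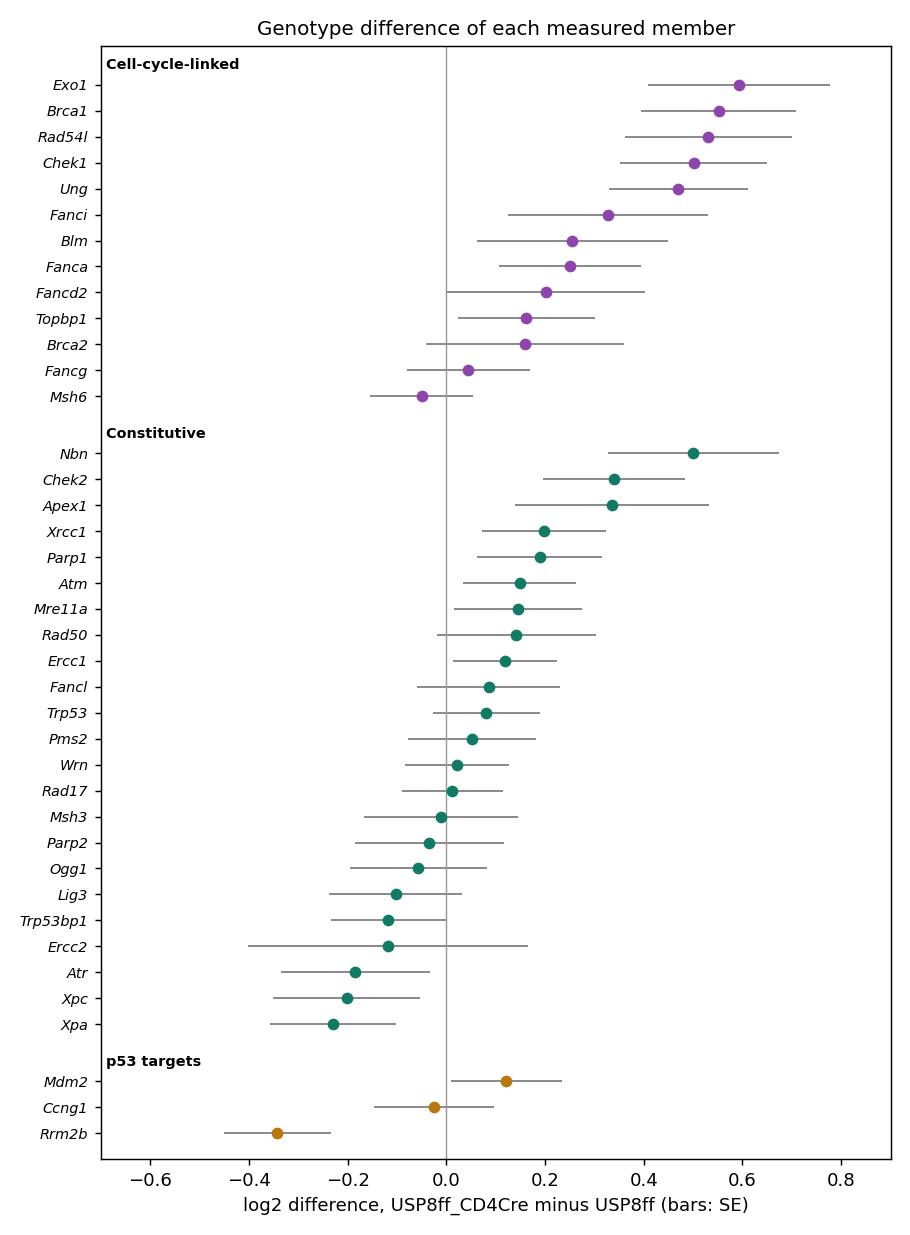
Log2 difference between USP8ff_CD4Cre and USP8ff for each of the 39 measured members (points, with SE as bars), by class and in order of size. Exo1, Brca1, Rad54l, Chek1 and Ung of the cell-cycle-linked class and Nbn of the constitutive class lie at or above 0.47, while most constitutive genes scatter around 0.

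Homologous recombination copies an intact sister chromatid to mend breaks and broken forks. Brca1, which acts early in the process, had signals of 1.47 and 1.82 in USP8ff_CD4Cre replicates 1 and 2. Its signals were 1.16 and 1.03 in USP8ff replicates 1 and 2. Both USP8ff_CD4Cre arrays were above both USP8ff arrays, the difference was 0.55 ± 0.16 (SE), and a second Brca1 probe gave 0.41. Rad54l, a motor protein that helps the broken strand invade its sister, had 0.53 and 0.89 in USP8ff_CD4Cre and 0.30 and 0.06 in USP8ff, a difference of 0.53 ± 0.17. The groups did not overlap for this gene either.

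Brca2, which acts later in the same process, showed another pattern. Its signals were 0.50 and 0.55 in USP8ff_CD4Cre, against 0.64 and 0.09 in USP8ff, so that a single array, USP8ff replicate 2, lay low and the groups overlapped (difference 0.16 ± 0.20). The helicase gene Blm, which dissolves recombination intermediates, likewise had 1.94 and 2.11 in USP8ff_CD4Cre and 2.02 and 1.52 in USP8ff (0.26 ± 0.19). Wrn, a related helicase placed in the constitutive class, had a difference of 0.02 ± 0.11.

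The upstream sequences of 5 members are shown because the class was drawn on the idea of S-phase transcription: Brca1 and Chek1, with large differences, Brca2 and Topbp1 of the same class, and Chek2 of the constitutive class. Each runs 5′ to 3′ on the strand of the gene over the 250 bases before its start, from RefSeq on GRCm38.p6. Capitals mark an E2F-type word of 8 letters, one of TTTCCCGC, TTTCGCGC, TTTGCCGC and TTTGGCGC, searched on both strands.
Brca1 (chr11:101551956-101552205, minus strand): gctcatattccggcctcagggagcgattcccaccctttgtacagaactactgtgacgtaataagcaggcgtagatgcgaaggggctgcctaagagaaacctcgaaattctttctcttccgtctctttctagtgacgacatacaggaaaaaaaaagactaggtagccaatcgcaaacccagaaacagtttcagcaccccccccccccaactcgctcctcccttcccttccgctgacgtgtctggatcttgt
Chek1 (chr9:36726659-36726908, minus strand): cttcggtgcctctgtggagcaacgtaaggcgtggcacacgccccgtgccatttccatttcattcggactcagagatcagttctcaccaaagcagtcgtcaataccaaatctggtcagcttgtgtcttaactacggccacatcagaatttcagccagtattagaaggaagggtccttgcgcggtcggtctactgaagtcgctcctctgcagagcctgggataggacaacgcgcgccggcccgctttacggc
Brca2 (chr5:150522371-150522620, plus strand): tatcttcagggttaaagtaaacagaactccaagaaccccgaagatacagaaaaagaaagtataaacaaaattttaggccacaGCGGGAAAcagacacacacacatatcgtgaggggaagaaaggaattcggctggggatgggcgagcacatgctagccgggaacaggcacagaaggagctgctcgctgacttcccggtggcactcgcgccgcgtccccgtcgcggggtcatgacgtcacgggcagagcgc
Topbp1 (chr9:103305077-103305326, plus strand): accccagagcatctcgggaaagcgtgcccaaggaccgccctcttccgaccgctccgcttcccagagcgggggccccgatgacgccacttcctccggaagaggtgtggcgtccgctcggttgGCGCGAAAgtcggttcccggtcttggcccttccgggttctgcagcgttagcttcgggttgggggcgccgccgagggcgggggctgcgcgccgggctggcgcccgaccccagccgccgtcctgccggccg
Chek2 (chr5:110839733-110839982, plus strand): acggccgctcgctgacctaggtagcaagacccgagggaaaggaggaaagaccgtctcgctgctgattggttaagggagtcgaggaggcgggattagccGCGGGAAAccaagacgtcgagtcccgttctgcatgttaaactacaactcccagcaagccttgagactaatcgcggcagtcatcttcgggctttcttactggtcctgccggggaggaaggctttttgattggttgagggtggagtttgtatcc

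Promoters were present in the table for 34 of the 41 members. An 8-letter word lay in 4 of 12 cell-cycle-linked promoters (33.3%), those of Bard1, Brca2, Fancg and Topbp1, and in 3 of 20 constitutive ones (15.0%), those of Chek2, Mdc1 and Msh3. Among all 27025 genes of the table the share was 2.16%, and among the proliferation genes described below it was 5 of 22 (22.7%). The 27025 include genes that were not measured in these cells. No share was taken over the tested genes alone, so whether the members exceed those was not tested. With the first T left off, a 7-letter word remains, which each 8-letter match also contains. It was found in 5 of the 12 and 6 of the 20, against 9.01% of all genes and 9 of the 22 proliferation genes (40.9%). Of the 6 higher members with an unadjusted p under 0.05, Brca1, Chek1, Rad54l and Ung held neither form in this window, and Exo1 and Nbn had no promoter in the table. Among tested members with an 8-letter word the differences were 0.34 for Chek2, 0.16 for Brca2, 0.16 for Topbp1, 0.04 for Fancg and -0.01 for Msh3. Those with a 7-letter word alone had 0.34 (Apex1), 0.26 (Blm), 0.12 (Ercc1) and -0.12 (Ercc2). In Topbp1 a 7-letter word on the sense strand overlaps the marked one. A match describes letters only, and its absence says only that they are not in these 250 bases.

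The Fanconi pathway unhooks crosslinks ahead of the replication fork. All 5 members had positive differences between 0.04 and 0.33, and none had an unadjusted p under 0.05. Fanci, a subunit of the clamp that is ubiquitinated at the crosslink, had 2.36 and 2.36 in USP8ff_CD4Cre and 2.32 and 1.76 in USP8ff (0.33 ± 0.20). Fancd2, its partner in the clamp, had 0.71 and 0.67 in USP8ff_CD4Cre and 0.76 and 0.21 in USP8ff (0.20 ± 0.20). For both genes USP8ff replicate 1 resembled the USP8ff_CD4Cre arrays and USP8ff replicate 2 stood below them.

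Of the Fanconi core complex, Fanca had a difference of 0.25 ± 0.14 and the 2 groups did not overlap. Fancg had 0.04 ± 0.12, and its 3 kept probes ranged from -0.02 to 0.43. Fancl, the ubiquitin ligase subunit, which was placed in the constitutive class, had 0.09 ± 0.14, and its 2 probes had the same sign.

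Mismatch repair corrects replication errors. Exo1, the exonuclease that removes the strand with the error and also resects broken ends, had the largest difference of the 39 members, 0.59 ± 0.18. Its signals were 2.11 and 2.47 in USP8ff_CD4Cre, against 1.86 and 1.53 in USP8ff, without overlap. The mismatch-recognition and strand-incision genes lay elsewhere. Msh6, a recognition subunit assigned to the cell-cycle-linked class, was the only one of its 13 measured members below 0, at -0.05 ± 0.10 (95% interval -0.32 to 0.22). Msh3, an alternative recognition subunit, had -0.01 ± 0.16. Pms2, the nuclease subunit, had 0.05 ± 0.13 on the probe used and -0.37 on its other kept probe.

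Checkpoint kinases halt the cycle while damage is mended. Chek1, the effector kinase of ATR in S and G2 phase, had signals of 0.40 and 0.73 in USP8ff_CD4Cre, against 0.13 and 0.0001 in USP8ff. The difference was 0.50 ± 0.15 without overlap, and the second Chek1 probe gave 0.56. Its upstream kinase gene Atr differed in sign, with 1.35 and 1.14 in USP8ff_CD4Cre and 1.57 and 1.29 in USP8ff (-0.18 ± 0.15), and the groups overlapped. Topbp1, the ATR activator, had 0.16 ± 0.14, and Rad17, which loads the checkpoint clamp, had 0.01 ± 0.10.

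In the ATM branch, Atm, the kinase that answers double-strand breaks, had -1.21 and -1.04 in USP8ff_CD4Cre and -1.28 and -1.27 in USP8ff. That difference of 0.15 ± 0.11 (95% interval -0.14 to 0.44) was small, although the groups did not overlap. Chek2, the effector kinase of ATM, had -1.43 and -1.11 in USP8ff_CD4Cre, against -1.62 and -1.59 in USP8ff, a difference of 0.34 ± 0.14 whose 95% interval of -0.03 to 0.71 included 0. Trp53bp1, which steers breaks toward end joining, had -0.12 ± 0.12.

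The 3 subunits of the break-sensing MRN complex all had positive differences. Nbn, which recruits ATM to breaks, had 2.36 and 2.77 in USP8ff_CD4Cre, against 1.97 and 2.16 in USP8ff. Its difference of 0.50 ± 0.17 was the largest of the constitutive class, the groups did not overlap, and the other Nbn probe gave 0.32. Mre11a, the nuclease subunit, had 0.15 ± 0.13 on the probe used, with its 3 kept probes between -0.03 and 0.41, and Rad50, the ATPase that tethers DNA ends, had 0.14 ± 0.16.

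**Figure D2:**
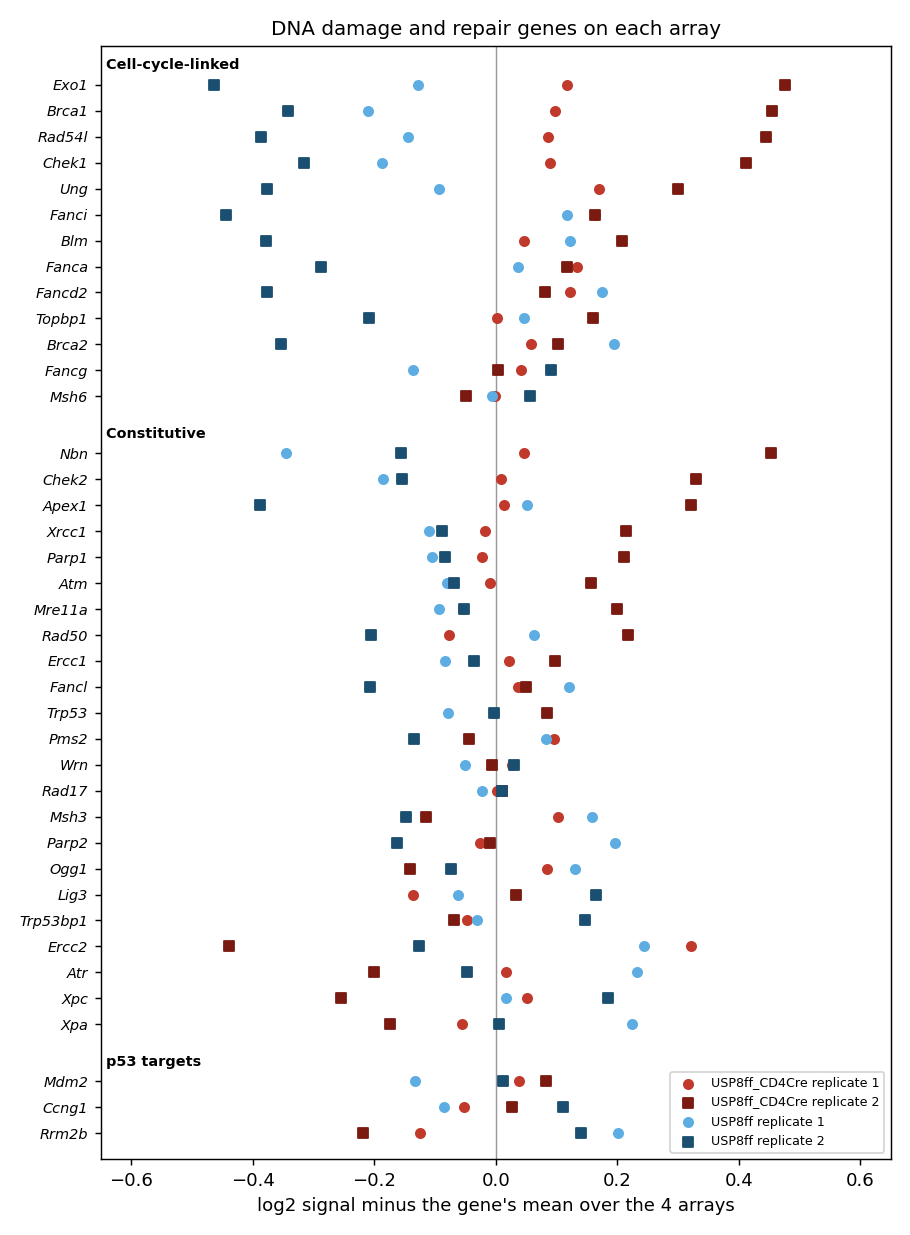
Log2 signal of each measured member on the 4 arrays, centred on the gene's mean, by class. In the cell-cycle-linked class USP8ff replicate 2 (dark blue squares) is the lowest of the 4 for 11 of 13 genes, and for Fanci, Blm, Fancd2 and Brca2 it stands apart while the other 3 arrays lie close together.

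Base excision and single-strand break repair replace damaged bases. Ung, the glycosylase that removes uracil and is assigned to the cell-cycle-linked class, had 2.15 and 2.28 in USP8ff_CD4Cre, against 1.89 and 1.60 in USP8ff. The difference was 0.47 ± 0.14 and the groups did not overlap. Apex1, the endonuclease that cuts at the emptied site, had 1.58 and 1.89 in USP8ff_CD4Cre and 1.62 and 1.18 in USP8ff. Its groups overlapped (0.34 ± 0.20).

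The remaining base excision genes stayed within 0.20 of 0. Xrcc1, the scaffold of single-strand break repair, had 0.20 ± 0.13 and Parp1, which senses nicks, 0.19 ± 0.13, both without overlap. Parp2 (-0.03 ± 0.15), the ligase gene Lig3 (-0.10 ± 0.14) and Ogg1, the glycosylase for oxidised guanine (-0.06 ± 0.14), were slightly negative.

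Nucleotide excision repair removes bulky and ultraviolet lesions, and 3 of its 4 members had negative differences. Xpa, which verifies damage, had 0.06 and -0.06 in USP8ff_CD4Cre, against 0.34 and 0.12 in USP8ff (-0.23 ± 0.13). Its USP8ff_CD4Cre arrays were both the lower ones, by a gap smaller than the spread within USP8ff. Xpc, the sensor of distorted helices, had -0.20 ± 0.15, with a second probe at -0.26. Ercc2, a helicase of the TFIIH complex, had -0.12 ± 0.28 and the widest spread of all members, with -1.02 and -1.78 in USP8ff_CD4Cre. Ercc1, part of the nuclease that cuts before the lesion, had 0.12 ± 0.11.

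The p53 arm showed no common direction. Trp53 itself had 1.03 and 1.12 in USP8ff_CD4Cre and 0.96 and 1.03 in USP8ff, a difference of 0.08 ± 0.11 (95% interval -0.19 to 0.36). Of the 3 targets, Rrm2b, a ribonucleotide reductase subunit that supplies nucleotides for repair outside S phase, had -2.21 and -2.30 in USP8ff_CD4Cre, against -1.88 and -1.94 in USP8ff. That difference of -0.34 ± 0.11 left 78.9% of the USP8ff signal, and the groups did not overlap. Mdm2, the ubiquitin ligase that degrades p53, had 3.12 and 3.16 in USP8ff_CD4Cre and 2.95 and 3.09 in USP8ff (0.12 ± 0.11), and its second probe had the opposite sign (-0.07). Ccng1, a cyclin that acts in feedback on p53, had 1.45 and 1.52 in USP8ff_CD4Cre and 1.41 and 1.61 in USP8ff (-0.02 ± 0.12), and its sign turned with normexp background correction, with the mean of the probes and without USP8ff_CD4Cre replicate 1 or USP8ff replicate 2. Of the other p53 targets listed, 14 of 18 were measured, 8 of them positive, with a median of 0.05. Gtse1, a mitotic regulator of p53, had 0.43 ± 0.16 and the stress gene Gadd45a -0.22 ± 0.13. Cdkn1a, the cell-cycle inhibitor, was not well above background on both arrays of either genotype.

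Both USP8ff_CD4Cre arrays exceeded both USP8ff arrays for 7 of the 13 cell-cycle-linked genes and 6 of the 23 constitutive genes (53.8% and 26.1%), where 24.3% of all genes did so. Both lay below for 0 and 2 of them (0% and 8.70%), against 16.3% of all genes. The constitutive share above was thus near that of all genes.

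The spread within a genotype was of the same size as the differences. For the cell-cycle-linked class the mean of centred values was 0.09 and 0.22 in USP8ff_CD4Cre replicates 1 and 2, against -0.02 and -0.29 in USP8ff replicates 1 and 2. The constitutive class had 0.02 and 0.04 in USP8ff_CD4Cre and 0.01 and -0.07 in USP8ff. For the median cell-cycle-linked gene the gap between arrays was 0.13 in USP8ff_CD4Cre and 0.28 in USP8ff, while for the median constitutive gene it was 0.22 in USP8ff_CD4Cre and 0.19 in USP8ff. Without USP8ff replicate 2 the cell-cycle-linked median was 0.089 with 10 of 13 positive, and without USP8ff replicate 1 it was 0.51 with 11 of 13 positive. The constitutive median was 0.012 without USP8ff replicate 2, 0.13 without USP8ff replicate 1 and 0.017 without USP8ff_CD4Cre replicate 1. The gap between the medians was 0.078 without USP8ff replicate 2, 0.38 without USP8ff replicate 1 and 0.31 without USP8ff_CD4Cre replicate 1.

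**Figure D3:**
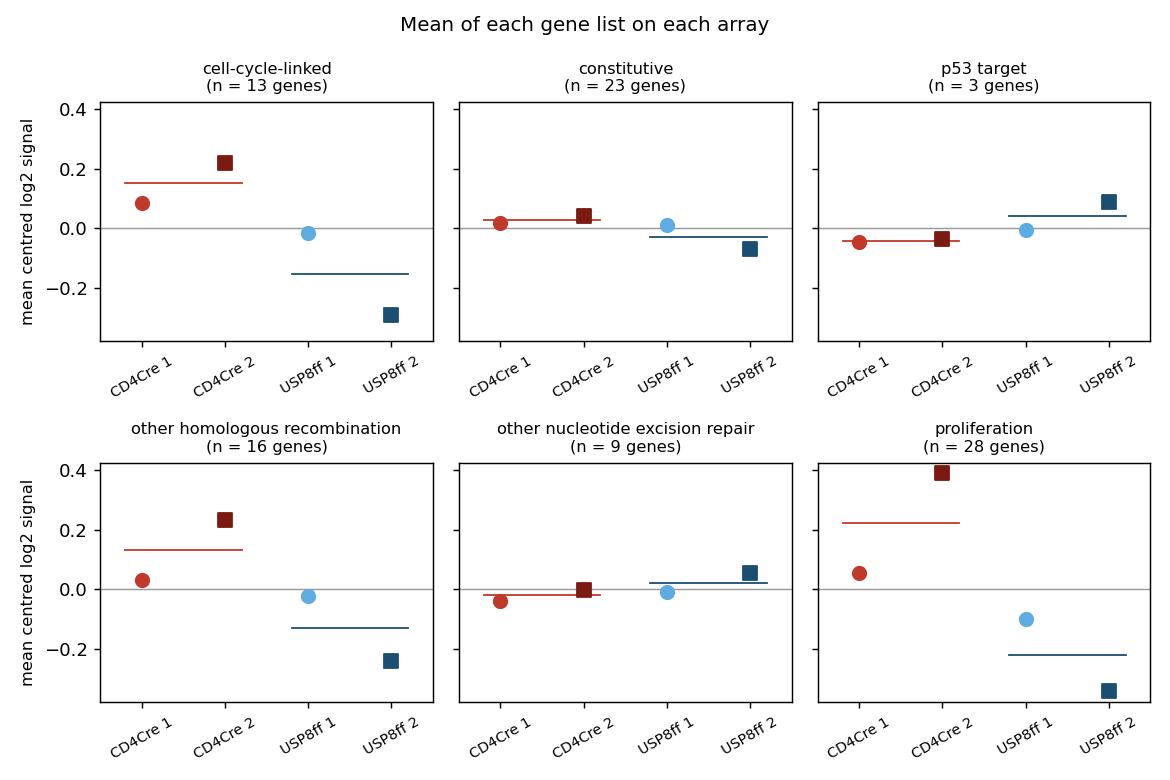
Mean centred log2 signal of 6 gene lists on each array (points) with the mean of each genotype (lines). The cell-cycle-linked members, the other homologous recombination genes and the proliferation genes share the order of the arrays, with USP8ff_CD4Cre replicate 2 highest and USP8ff replicate 2 lowest. The means of the constitutive class fall in the same order, within a narrower range of -0.07 to 0.04.

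Proliferation genes lay higher in USP8ff_CD4Cre together with the cell-cycle-linked members. All 28 measured of the list, which holds replication, cyclin and mitotic genes, had positive differences, with a median of 0.47, and their summed linear signal was 774.5 and 955.7 in USP8ff_CD4Cre, against 698.2 and 612.6 in USP8ff, in multiples of the 75th percentile of each array. Tyms had 0.52 ± 0.14, Mki67 0.52 ± 0.15, Plk1 0.63 ± 0.19 and Mcm5 0.47 ± 0.15. Without USP8ff_CD4Cre replicate 2 the median of this list was 0.28 and without USP8ff replicate 2 it was 0.31. Its part in the values of the repair genes was not tested, and in bulk samples more cycling cells and more RNA per cycling cell cannot be told apart.

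The order of the arrays was compared gene by gene as a description. For 26 of the 28 proliferation genes (92.9%) USP8ff_CD4Cre replicate 2 was highest, followed by USP8ff_CD4Cre replicate 1, USP8ff replicate 1 and USP8ff replicate 2. That order held for 6 of 13 cell-cycle-linked members (46.2%), for 0 of 23 constitutive members and for 10.1% of all genes. It includes the genotype difference, since both USP8ff_CD4Cre arrays must exceed both USP8ff arrays. That condition alone was met by 27 of 28 proliferation genes, 7 of 13 cell-cycle-linked members, 6 of 23 constitutive members and 24.3% of all genes. The 6 cell-cycle-linked members in the full order were the 5 with the largest differences of the class (Exo1, Brca1, Rad54l, Chek1 and Ung) and Fanci. Fanci had 2.363 on both USP8ff_CD4Cre arrays, so its place in this count rests on a difference too small to print. The lowest array was USP8ff replicate 2 for 11 of 13 cell-cycle-linked members, against 6 of 23 constitutive members and 29.0% of all genes.

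Genes of the same pathways outside the set were grouped by pathway, not by class. Grouped so, the members had medians of 0.26 (homologous recombination), 0.20 (Fanconi), 0.12 (checkpoint), 0.19 (base excision), 0.02 (mismatch) and -0.16 (nucleotide excision). Outside the set the checkpoint median lay above the base excision median, unlike among the members. Counts in the outside lists at an unadjusted p under 0.05 stand against 3.97% of all genes higher and 3.46% lower. Of 16 other homologous recombination genes, 13 were positive (median 0.33), with 4 higher at an unadjusted p under 0.05, Xrcc2 (0.55 ± 0.18) among them. All 12 other checkpoint genes were positive (median 0.20), with 1 higher at that limit, a count too small to set against the share of all genes. The smallest p-values were those of Wee1 (0.45 ± 0.16), an inhibitor of mitotic entry, and Clspn (0.49 ± 0.21), the adaptor that activates CHK1. Of 6 measured other Fanconi genes, 5 were positive (median 0.17), with 1 at that limit, the conjugating enzyme gene Ube2t (0.39 ± 0.13), followed by Fancm (0.25 ± 0.11).

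The excision and mismatch lists centred near 0. Of 13 other base excision genes 5 were positive (median -0.06), the 2 at the limit being Lig1 (0.52 ± 0.17) and Fen1 (0.50 ± 0.17), which also join and trim Okazaki fragments. Of 9 other nucleotide excision genes 4 were positive (median -0.08), 0 at the limit, with Ercc6 at -0.23 ± 0.10 and Ercc4 at -0.25 ± 0.13. Of 4 other mismatch genes 2 were positive (median -0.02), with Pms1 at 0.13 ± 0.11. Mlh3, which acts in meiotic and mismatch repair, had -1.10 and -1.29 in USP8ff_CD4Cre, against -0.63 and -0.75 in USP8ff, a difference of -0.50 ± 0.12 with an adjusted p of 0.66 in limma. None of these genes passed over all genes.

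Markers of other cells were also unequal between the genotypes. Macrophage and dendritic markers, 6 of 13 measured, summed to 1.38 and 1.71 in USP8ff_CD4Cre, against 2.31 and 2.60 in USP8ff. Of the 6, 5 were negative, led by Ctss (-1.96) and Mpeg1 (-1.09) without overlap, while Cd68, Lyz1 and Lyz2 (-0.19 to -0.06) overlapped. C1qb was positive (0.25), but it passed the filter only through USP8ff_CD4Cre, with 1 USP8ff array well above background. Csf1r, Itgam, Itgax, Emr1, C1qa and Mertk were not well above background on both arrays of either genotype. Markers of NK, innate and gamma-delta T cells, 5 of 10 measured, summed to 3.94 and 5.29 in USP8ff_CD4Cre and to 4.28 and 4.37 in USP8ff. That sum hid opposite signs, for a median of -0.86. Nkg7 (-2.09), Il2rb (-2.02) and Prf1 (-0.86) were lower without overlap, and Gzma (0.42) and Tbx21 (0.15) were higher without overlap. Il2rb passed the filter only through USP8ff, with 1 USP8ff_CD4Cre array well above background, so the size of its difference is uncertain. Klrb1c, Klrd1, Ncr1, Gzmb and Sox13 were not well above background on both arrays of either genotype. B cell markers, 3 of 7 measured, summed to 99.9 and 119.3 in USP8ff_CD4Cre, against 73.7 and 83.0 in USP8ff, a sum led by Igh-6 (0.53), the 1 positive gene of the 3, while the defining Cd79a, Ms4a1 and Pax5 were not well above background. Erythroid markers, 3 of 6 measured, summed to 0.333 and 0.632 in USP8ff_CD4Cre and 0.321 and 0.368 in USP8ff, and thymic stroma markers, 2 of 8 measured, to 0.264 and 0.307 in USP8ff_CD4Cre and 0.344 and 0.355 in USP8ff. The part of such cells in the values of the repair genes was not tested. None of the 78 probes in the authors' deposited table belongs to a member.

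**Figure D4:**
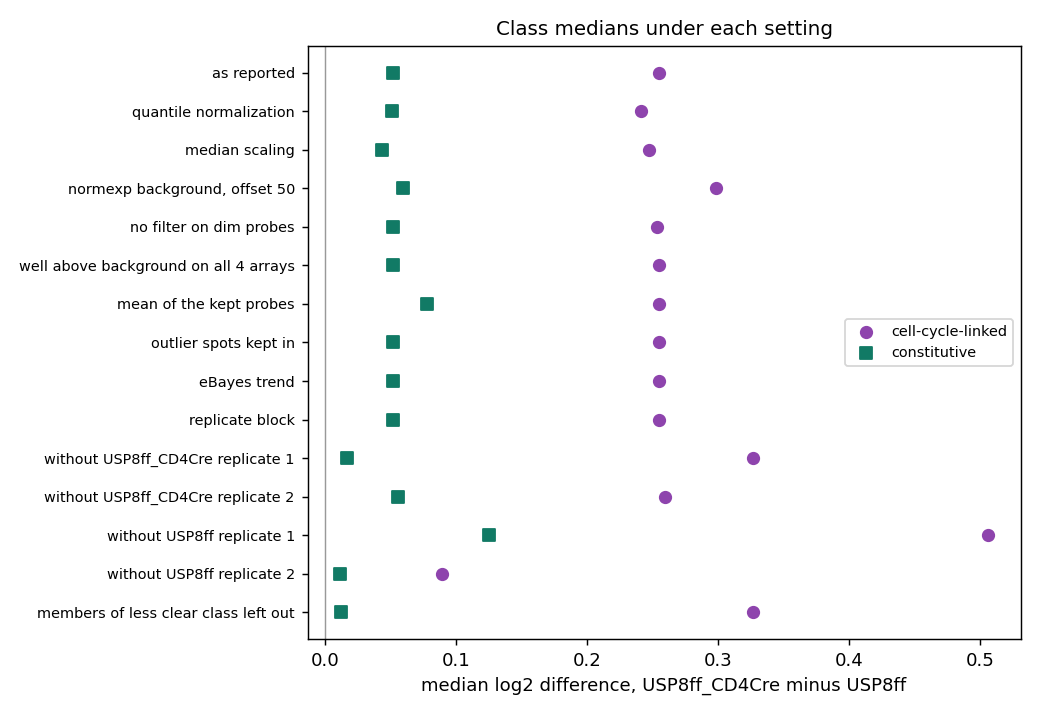
Median log2 difference of the cell-cycle-linked (circles) and constitutive (squares) members under the reported setting and each alternative. The cell-cycle-linked median is the larger one throughout, between 0.089 without USP8ff replicate 2 and 0.51 without USP8ff replicate 1.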

How the data were processed

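RNA of sorted DP thymocytes (500 ng) was made into Cy3-labelled cRNA for 1-colour Agilent arrays, per the labels. The scanner output was made with Feature Extraction 10.7.3.1 from 1 slide that held the 4 arrays, per the file headers. Its deposited spot intensities (processed signal) were background-subtracted and detrended array by array, with no scaling across arrays. A deposited table of the authors gives a fold (ratio) and a p-value per probe by an unstated test. A further deposited table with 4 columns of per-sample values that match no label was not used.

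On each array the log2 processed signals were taken relative to their 75th percentile over 43379 non-control spots. Outlier spots were left out, spots of a probe were averaged, and a probe was kept where both arrays of either genotype had it well above background (19038 of 41174). The brightest kept probe stood for its gene. Listed genes kept the design name, and the others took the RefSeq symbol of their accession (26690 probes in all matched). The genotype difference was fitted in limma 3.58.1 (R 4.3.3) without block or trend, with Benjamini-Hochberg adjustment over 13062 genes, after the script was tested on simulated data. Probe positions are on mm9, and promoter positions are on GRCm38.p6. Figures used matplotlib 3.10.9.

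The members, classes and lists were chosen with earlier results of these data known. Array values were given for members with an unadjusted p under 0.05, the 4 with the smallest p in each large class, Trp53, Atm and the p53 targets, and wider lists named the 2 genes with the smallest p (4 for proliferation). Some genes that this rule or a list would name are not reported here. Array values of other members, and the 5 promoters printed, were chosen after values were seen. Alternatives were other scalings, background corrections, filters, probe rules, an eBayes trend, a replicate block, clearer classes and each array left out.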

Additional observations from a re-analysis of the deposited data

How the results depend on the processing

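Limma called 0 genes under all 13 alternatives run on the whole table. The cell-cycle-linked median lay between 0.089 and 0.51, the constitutive median between 0.012 and 0.13 and their gap between 0.078 and 0.38 with each array left out, and 0 to 11 members had an unadjusted p under 0.05. With no filter on dim probes 2 members had such a p, and the cause was not tested. The median of the p53 targets (-0.02) was 0.0019 with normexp background, 0.024 with the mean of the probes and -0.12 to 0.073 with each array left out. Ccng1 was 0.0019 with normexp, 0.046 with the mean of the probes, 0.014 without USP8ff_CD4Cre replicate 1 and 0.073 without USP8ff replicate 2. Of 14 members described in full, 13 kept their sign under the 13 alternatives. Most of the 14 were chosen by small p-values, and leaving out an array cannot turn a sign where the groups do not overlap. Outside the 14, several members changed sign with an array left out, and those named here are examples. Brca2, Fancd2, Fancl and Pms2 turned negative without USP8ff replicate 2, and Fancg without USP8ff replicate 1. Msh3, Parp2, Ogg1 and Ercc2 turned positive without USP8ff replicate 1. The USP8ff_CD4Cre means of Brca2 and Fancd2 were 0.52 and 0.69, against 0.64 and 0.76 on USP8ff replicate 1. Leaving out members of less clear class gave a gap of 0.31. Same-numbered arrays deviated together (correlation 0.32 across genes), but the labels do not say that the numbers pair samples. With the number as a replicate block the cell-cycle-linked median stayed 0.26 and 8 members had an unadjusted p under 0.05. The cause of these shifts was not tested.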
